A study of Mus musculus with 12 samples.

Results

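Kinesins are motor proteins that use ATP to walk along microtubules or to take them apart. All genes whose symbol on the array has the form Kif plus a number and an optional letter, or Kif plus a letter and a number, were taken, with the brightest probe set over all arrays standing for each gene. This gave 40 of the 18193 genes with a probe set of a single symbol. They were read in 3 classes by their known roles. The classes were 13 mitotic kinesins, 15 transport kinesins and 12 other kinesins.

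The study asked which genes p53 and p66Shc control in tissues of young mice. RNA came from 4 organs (thymus, heart, lung and liver). The Sv/129 mice, aged 2 months, were wild type (WT), lacked the tumour suppressor p53 (p53−/−, p53KO in the plots) or lacked p66Shc, the stress-related isoform of Shc1 (p66−/−, p66KO in the plots). Each tissue and genotype was 1 pool of RNA from 4 mice on 1 Affymetrix array, which makes 12 arrays. No other agent or allele is given in the labels. A log2 difference of 1 between arrays is a 2-fold difference in signal. A difference within a tissue rests on 2 arrays and has no replicate check.

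Mitotic kinesins build and move the spindle. Some slide its poles apart, some carry or hold chromosomes, some shorten microtubules, and some bundle the central spindle on which a dividing cell is cleaved. Their transcripts belong to cycling cells and peak as these enter mitosis. The thymus is full of dividing T cell precursors at this age, whereas most cells of heart, lung and liver rest. Transport kinesins carry vesicles, endosomes, mitochondria and ciliary proteins and are used by resting cells. The other kinesins hold regulators of microtubule growth, ciliary and signalling kinesins and members whose work is less well known.

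The tissue labels matched their markers. Rag1, which cuts T cell receptor genes, read 11.31 to 13.13 on the log2 scale in thymus and 3.86 to 7.22 elsewhere, and Myh6, Sftpc and Alb were highest in heart, lung and liver. The knock-out labels were not checked. Shc1 read 9.14 to 9.83 in p66−/− arrays and 8.57 to 9.09 in WT arrays, and the Shc1 isoforms share most of their sequence, so its signal checks nothing. The p53 transcript was not analysed here. Some arrays stood apart. Salivary gland markers (17 genes) averaged 13.36 on the WT thymus array against 5.54 and 5.55 on the p53−/− and p66−/− thymus arrays, and 7.99 on the WT heart array. Thymocyte markers (15 genes) averaged 9.84, 11.05 and 10.94 in WT, p53−/− and p66−/− thymus, and 6.56, 7.08 and 7.61 in lung in the same order. Skeletal muscle markers averaged 9.18 in p53−/− thymus against 6.69 in WT thymus. Hepatocyte markers averaged 10.31 in WT, 9.33 in p66−/− and 6.84 in p53−/− lung. The Gapdh 3′ minus 5′ signal, a sign of RNA length, was 2.29, 1.32 and 0.659 on these arrays. Signals of a pooled tissue do not tell fewer cells of a type from less RNA per cell.

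Many genes of mitosis carry a CHR element, bound by complexes that hold them off in resting cells and turn them on before mitosis, often with a CCAAT box, bound by the factor NF-Y, a short way before it. Promoters were read from RefSeq windows (GRCm38.p6) that run from 250 bases before the annotated start to 50 after it. They covered 12 of the 13 mitotic, 10 of the 15 transport and 10 of the 12 other kinesins. The letters TTTGAA or TTCGAA, sought on both strands as the CHR element, lay in 10 of 12 mitotic promoters, in 1 of 12 transport promoters and in 3 of 12 promoters of the other kinesins. Over all 32851 promoters the share was 19.2%. CCAAT, sought on both strands, lay in 8 of 12 mitotic and 4 of 12 transport promoters, against 37.4% of all promoters. Both stood together in 7 mitotic promoters (58.3%), in 0 transport promoters and in 7.52% of all promoters. From 60 bases before the start onward, the CHR letters lay in 8 of the 12 mitotic genes and in 6.79% of all genes.

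The 8 mitotic promoters with CHR letters near the start are printed first, because 7 of these genes form most of the group that was higher in thymus. Each runs 5′ to 3′ on the strand of the gene, from 80 bases before the start to the first 25 transcribed bases. Capitals mark TTTGAA or TTCAAA and CCAAT or ATTGG.
Kif11 (chr19:37376302-37376406, plus strand): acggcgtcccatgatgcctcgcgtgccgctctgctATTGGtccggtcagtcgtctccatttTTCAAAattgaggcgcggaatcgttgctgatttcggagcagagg
Kif22 (chr7:127042396-127042500, minus strand): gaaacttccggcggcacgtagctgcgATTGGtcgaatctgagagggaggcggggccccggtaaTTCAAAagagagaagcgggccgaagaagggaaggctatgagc
Kif15 (chr9:122951001-122951105, plus strand): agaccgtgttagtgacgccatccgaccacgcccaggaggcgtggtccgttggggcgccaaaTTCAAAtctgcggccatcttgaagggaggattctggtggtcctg
Kif18b (chr11:102925100-102925204, minus strand): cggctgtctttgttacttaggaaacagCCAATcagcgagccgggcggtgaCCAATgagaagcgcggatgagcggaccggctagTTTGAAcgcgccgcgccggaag
Kif20b (chr19:34922278-34922382, plus strand): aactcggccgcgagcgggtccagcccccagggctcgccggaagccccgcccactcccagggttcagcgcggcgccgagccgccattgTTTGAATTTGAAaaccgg
Kif23 (chr9:61946775-61946879, minus strand): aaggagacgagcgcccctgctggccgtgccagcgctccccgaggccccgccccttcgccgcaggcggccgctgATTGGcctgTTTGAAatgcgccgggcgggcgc
Kif4 (chrX:100625985-100626089, plus strand): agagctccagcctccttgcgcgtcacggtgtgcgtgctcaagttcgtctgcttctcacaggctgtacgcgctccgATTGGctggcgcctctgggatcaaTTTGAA
Kifc1 (chr17:33890609-33890713, minus strand): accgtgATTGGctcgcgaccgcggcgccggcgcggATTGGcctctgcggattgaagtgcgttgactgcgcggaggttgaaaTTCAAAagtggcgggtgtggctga

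In Kif11 and Kif22 the CHR letters begin at -19 and -17 and the CCAAT letters at -45 and -54, counted from the start base as 1. Kif20b has a pair of them in a row, at 8 and 14. Kif15 carries them at -19 without CCAAT letters in its window. Kif18a, a mitotic gene without either motif, and the transport genes Kif13a and Kif1c, the pair with the lowest thymus contrasts, are shown for comparison and hold no capitals.
Kif18a (chr2:109280658-109280762, plus strand): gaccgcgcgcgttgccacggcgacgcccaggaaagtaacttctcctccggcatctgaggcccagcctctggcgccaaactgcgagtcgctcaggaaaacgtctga
Kif13a (chr13:46929694-46929798, minus strand): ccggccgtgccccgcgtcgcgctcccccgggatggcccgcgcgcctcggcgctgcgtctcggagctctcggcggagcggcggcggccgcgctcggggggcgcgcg
Kif1c (chr11:70700468-70700572, plus strand): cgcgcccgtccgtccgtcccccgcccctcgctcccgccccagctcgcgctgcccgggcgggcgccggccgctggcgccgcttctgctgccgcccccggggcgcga

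**Figure D1:**
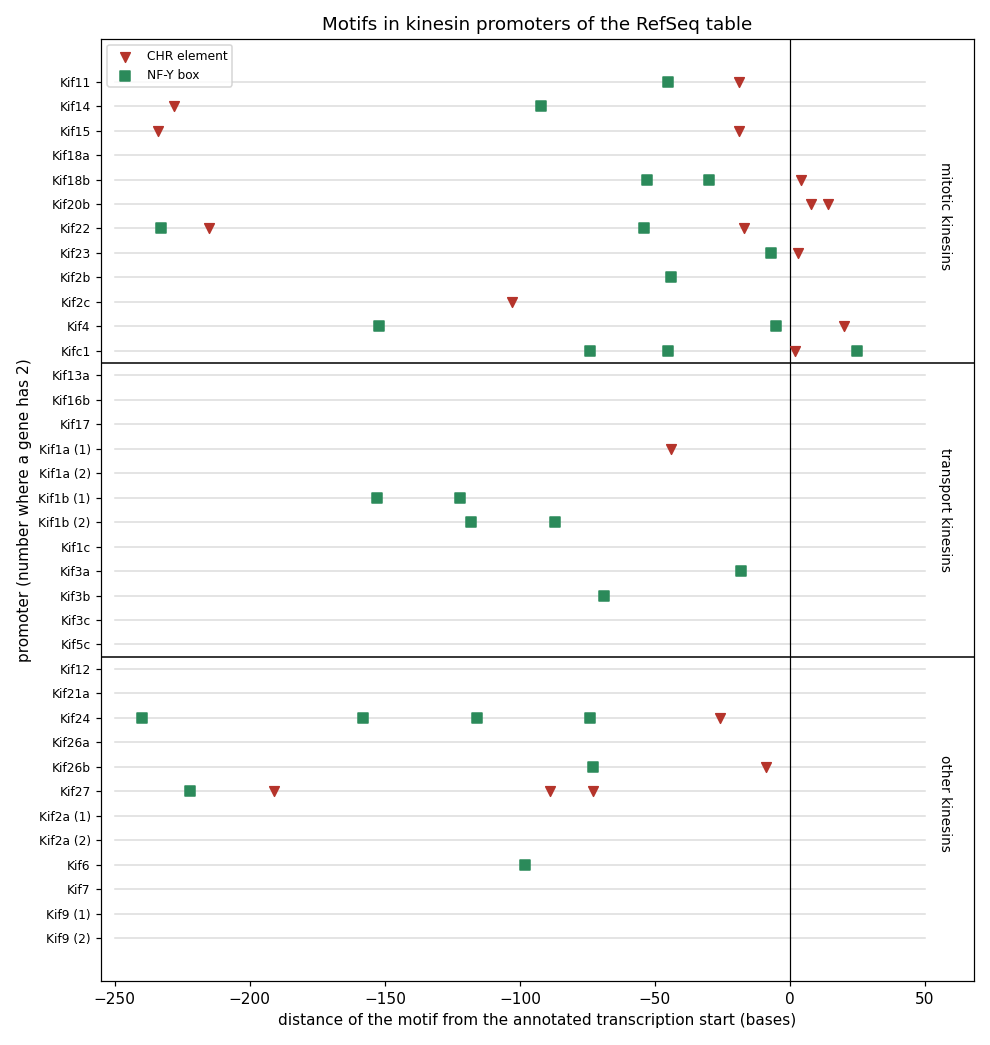
Positions of CHR elements (triangles) and NF-Y boxes (squares) in kinesin promoters, as the distance in bases from the annotated start, with 1 row per promoter grouped by class. Of the 12 mitotic promoters 10 hold a CHR element, against 1 of 12 transport promoters.

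With all 12 arrays, most mitotic kinesins were called higher in thymus, and most transport kinesins were not called. Each contrast sets a tissue against the mean of the others. A high thymus signal by itself therefore lowers the contrasts of heart, lung and liver, and a low one raises them. Of the 13 mitotic kinesins 9 were higher in thymus than in the mean of the other tissues and 0 were lower, whereas of the 15 transport kinesins 0 were higher and 4 were lower (limma over all 12 arrays with genotype as a term, Benjamini-Hochberg adjusted p under 0.05). Over all genes 16.4% were called higher and 17.5% lower. The median difference was 0.97 for the mitotic class, -0.14 for the transport class and -0.02 for all genes. Of the other kinesins 3 were higher and 2 lower.

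**Figure D2:**
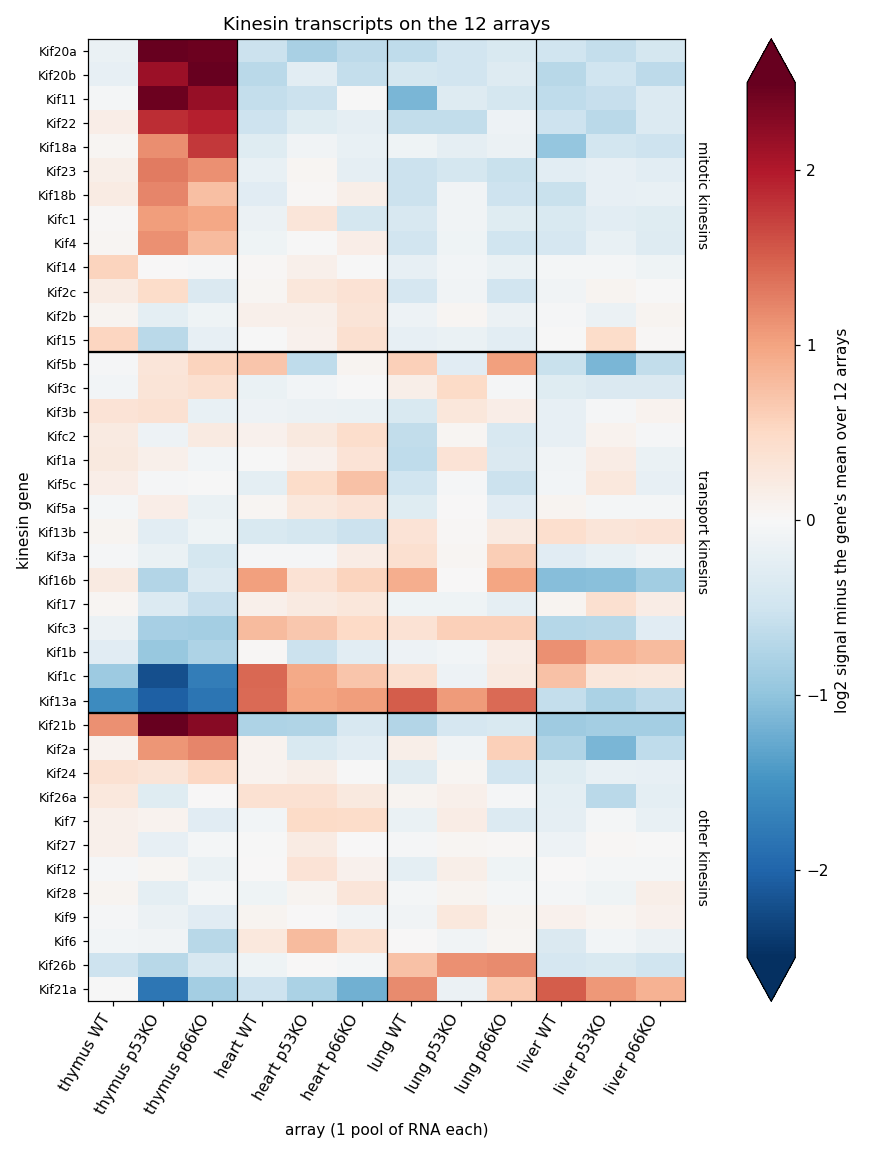
Log2 signal of each of the 40 kinesin genes (rows, by class) on the 12 arrays (columns), minus the mean of the gene over the 12 arrays, so that rows compare arrays and not genes. The upper rows are warmest on the p53KO and p66KO thymus arrays, and Kif1c and Kif13a are coldest there.

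Among the motors of spindle assembly, Kif11 and Kifc1 were higher in thymus. Kif11 (Eg5), which pushes the spindle poles apart, read 6.27 in WT, 8.76 in p53−/− and 8.5 in p66−/− thymus. On the 9 arrays of the other tissues it ran from 5.18 to 6.31 with a median of 5.78. The WT thymus array thus lay inside the range of the other tissues, and both knock-out thymus arrays lay far above it. The thymus contrast was 2.04 ± 0.32 (SE, limma adjusted p = 0.00073). Kifc1, which walks the other way and gathers microtubules at the poles, read 5.94, 6.97 and 6.89 in WT, p53−/− and p66−/− thymus and 5.49 to 6.22 elsewhere, a contrast of 0.90 ± 0.18 (limma adjusted p = 0.0032). Its probe set may also bind the near-identical Kifc5b. Kif15, which can stand in for Kif11, went another way. It read 8.02, 6.81 and 7.27 in WT, p53−/− and p66−/− thymus against 7.22 to 7.94 elsewhere, and its contrast was -0.15 (limma adjusted p = 0.68).

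Motors that act on chromosomes were also higher in thymus. Kif22 (Kid), which pushes chromosome arms toward the spindle equator, read 7.50, 9.18 and 9.26 in WT, p53−/− and p66−/− thymus, in this order throughout. Elsewhere it ran from 6.65 to 7.20. All 3 thymus arrays lay above the other 9, and the contrast was 1.76 ± 0.26 (limma adjusted p = 0.00041). Kif18a, which damps the movement of chromosomes at the equator, read 5.02, 6.15 and 6.74 in thymus and 4.01 to 4.90 elsewhere (contrast 1.32 ± 0.23, limma adjusted p = 0.0014). Its relative Kif18b, which controls microtubule length in mitosis, read 7.99, 9.0 and 8.55 in thymus and 7.23 to 7.94 elsewhere (0.97 ± 0.15, limma adjusted p = 0.00049). For both, the WT thymus array was just above the highest array of another tissue. Kif4, which works on chromosome arms and the central spindle, read 6.5, 7.59 and 7.24 in thymus and 5.95 to 6.61 elsewhere (0.88 ± 0.16, limma adjusted p = 0.0019), with WT thymus inside that range.

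Kif20a, Kif20b and Kif23, motors of the central spindle and of cell cleavage, were higher in thymus, and Kif20a had the largest thymus contrast of the mitotic class. Kif20a, which brings the chromosomal passenger complex to the central spindle, read 4.79, 7.69 and 7.42 in thymus against 4.16 to 4.59 elsewhere. Kif20b, needed for cell separation, read 4.63, 6.98 and 7.52 against 4.15 to 4.57. Their contrasts were 2.23 ± 0.43 and 2.05 ± 0.39 (limma adjusted p = 0.0023 for both). In both genes WT thymus lay close to the resting tissues and the knock-out arrays far above. Kif23, the motor of centralspindlin, read 7.52, 8.66 and 8.52 in thymus and 6.82 to 7.42 elsewhere (1.15 ± 0.18, limma adjusted p = 0.00071). Of the mitotic class, 6 genes (Kif18a, Kif18b, Kif20a, Kif20b, Kif22 and Kif23) had all 3 thymus arrays above all others, and over all genes 5.54% did.

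The remaining mitotic genes did not pass. Kif14, a motor of the midbody, read 4.48, 3.92 and 3.88 in thymus and 3.72 to 4.04 elsewhere, and Kif2b, a microtubule shortener, stayed between 3.96 and 4.53 on all 12 arrays. Both were below the median signal of the array on all 12 arrays. Kif2c (MCAK), which removes faulty chromosome attachments by shortening microtubules, read 7.69, 7.95 and 7.12 in thymus and 7.01 to 7.84 elsewhere by its brightest probe set, and its other probe sets are given further on.

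Among transport kinesins, Kif13a and Kif1c had the lowest contrasts of thymus against the other tissues. Kif13a, which moves endosomes, read 6.60, 6.12 and 6.35 in thymus, 7.58, 7.38 and 7.51 in liver, 9.59, 9.16 and 9.22 in heart and 9.69, 9.24 and 9.59 in lung. Thymus was lowest, liver next, and heart and lung overlapped. The thymus contrast was -2.42 ± 0.11 (limma adjusted p = 5.9e-07), and the heart and lung contrasts were 1.54 ± 0.11 and 1.78 ± 0.11. Kif1c, a carrier of dense-core vesicles, read 8.51, 7.22 and 7.68 in thymus, 10.14, 9.70 and 9.67 in liver, 10.85, 10.36 and 10.11 in heart and 9.82, 9.28 and 9.63 in lung, a thymus contrast of -2.15 ± 0.16 (limma adjusted p = 6.1e-06). Each of its 3 thymus arrays lay below all 9 others. Kifc3, a motor that moves cargo toward microtubule minus ends, read 8.33, 7.65 and 7.62 in thymus and 7.76 to 9.26 elsewhere (contrast -0.82 ± 0.18). Kif1b, a carrier of mitochondria and vesicle precursors, was lower by its brightest probe set (-0.89 ± 0.15, limma adjusted p = 0.00095).

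The third class was led in thymus by Kif21b, a regulator of microtubule growth known from neurons and from T cells. It read 8.81, 10.27 and 9.93 in thymus and 6.78 to 7.29 elsewhere, a contrast of 2.68 ± 0.21 (limma adjusted p = 7.9e-06). Its WT thymus array already lay well above all arrays of other tissues. Its close relative Kif21a went the opposite way, with 6.79, 4.99 and 5.94 in thymus, 8.32, 7.89 and 7.67 in liver, 6.28, 6.01 and 5.60 in heart and 7.98, 6.66 and 7.46 in lung. The contrasts of Kif21a were -1.19 ± 0.24 for thymus, -1.11 ± 0.24 for heart, 0.75 ± 0.24 for lung and 1.55 ± 0.24 for liver. Kif2a, which shortens microtubules in neurons and at spindle poles, read 7.31, 8.31 and 8.44 in thymus, 6.46, 6.08 and 6.58 in liver, 7.30, 6.84 and 6.96 in heart and 7.36, 7.13 and 7.82 in lung, and was higher in thymus (1.07 ± 0.23) and lower in liver (-1.12 ± 0.23). Kif24, which acts at centrioles, was higher in thymus by 0.54 ± 0.13, and Kif26b lower by -0.72 ± 0.13.

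**Figure D3:**
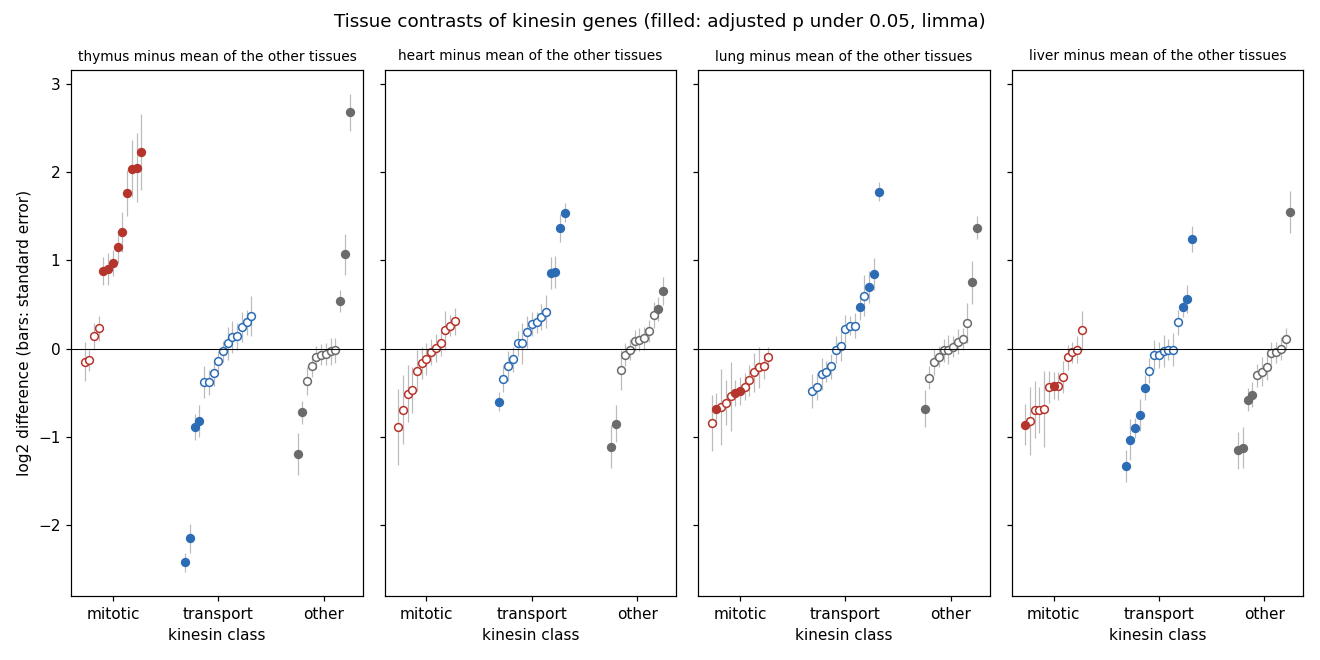
Each tissue minus the mean of the other 3 for the 40 kinesin genes, with log2 difference on the y axis, class on the x axis, standard error bars, and filled points where the limma adjusted p was under 0.05. In thymus 9 mitotic genes are filled above 0 and 4 transport genes below it.

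Leaving out the WT thymus array, which carried the salivary gland transcripts, changed several of these counts. Then 9 mitotic kinesins were higher in thymus and 1, Kif15, lower (-0.53 ± 0.17, limma adjusted p = 0.019), and 2 transport kinesins were higher and 6 lower. The thymus contrast of Kif20a became 3.15 ± 0.14 and that of Kif11 2.69 ± 0.17. Over all genes 4590 were then called higher and 4567 lower in thymus, against 2984 and 3190 with the array. With it left out, heart had 2 mitotic kinesins higher and 6 lower, and lung and liver had 9 lower each. The transport class then had 8 higher and 1 lower in heart and 6 higher and 1 lower in lung. Calls rose over all 18193 genes too. Heart totals became 5468 higher and 5419 lower, against 2960 and 3707 with the array. Lung totals became 3826 higher and 3906 lower, against 3119 and 2391. Those for liver became 3223 higher and 5140 lower, against 2599 and 3547. The kinesin counts without the array are to be read beside these totals.

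In heart, with all 12 arrays, 0 mitotic kinesins passed in either direction and 4 transport kinesins were higher and 1 lower. All genes gave 16.3% higher and 20.4% lower. The higher ones were Kif13a, Kif1c (1.37 ± 0.16), Kifc3 (0.87 ± 0.18) and Kif16b (0.86 ± 0.18). Kif16b carries early endosomes and read 7.55, 6.59 and 6.99 in thymus, 6.27, 6.28 and 6.45 in liver, 8.35, 7.69 and 7.88 in heart and 8.24, 7.34 and 8.31 in lung. The lower one was Kif13b, a vesicle carrier, at 7.99, 7.92 and 7.83 in heart and 8.11 to 8.78 elsewhere (-0.60 ± 0.11). Among the other kinesins, Kif6 was higher (0.65 ± 0.16), reading 7.08, 7.60 and 7.22 in heart and 6.13 to 6.87 elsewhere, as was Kif26a (0.45 ± 0.14), while Kif21a and Kif21b (-0.85 ± 0.21) were lower. At an unadjusted p under 0.05, 13 of the 40 kinesins passed in heart. Of all 18193 genes, 4245 were higher and 4516 lower in heart at that threshold, so many genes passed it.

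In lung 3 mitotic kinesins were lower, namely Kif23 (-0.68 ± 0.18), Kif18b (-0.50 ± 0.15) and Kif4 (-0.48 ± 0.16), and 4 transport kinesins were higher. The shares of all genes were 17.1% higher and 13.1% lower. In thymus, heart, lung and liver, Kif23 averaged 8.23, 7.25, 6.86 and 7.13. Kif18b averaged 8.52, 7.76, 7.41 and 7.47 in this order, and Kif4 7.11, 6.46, 6.09 and 6.14. For Kif18b and Kif4, lung was thus close to liver and far from thymus. The higher transport kinesins were Kif13a, Kif16b (0.85 ± 0.18), Kifc3 (0.70 ± 0.18) and Kif3a (0.47 ± 0.14), a kinesin-2 motor that builds cilia. Kif3a read 7.40, 7.05 and 7.61 in lung and 6.57 to 7.18 elsewhere, so the tissues overlapped. Ciliated cell markers, measured for 22 genes, were called higher in lung for 13 and lower for 0, and their part in the Kif3a difference was not tested. Kif26b, a kinesin without motor activity that is known from organ development, showed the clearest lung pattern. It read 6.90, 7.31 and 7.34 in lung and 5.46 to 6.16 elsewhere (1.37 ± 0.13, limma adjusted p = 1.9e-05). Without the p53−/− or the p66−/− lung array, 0 mitotic kinesins passed in lung. Without the p66−/− liver array 1 did, and without the p66−/− lung array 1 transport kinesin did.

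In liver 2 mitotic kinesins were lower, Kif18a (-0.86 ± 0.23) and Kif18b (-0.42 ± 0.15). Of the transport class 3 were higher and 5 lower, where all genes gave 14.3% and 19.5%. Kif1b led by its brightest probe set, with 10.78, 10.52 and 10.44 in liver and 8.70 to 9.84 elsewhere (1.24 ± 0.15). Kif1c (0.56 ± 0.16) and Kif13b (0.47 ± 0.11) were also higher. The lower ones were Kif16b (-1.33 ± 0.18), Kif5b (-1.03 ± 0.23), Kif13a (-0.90 ± 0.11), Kifc3 (-0.75 ± 0.18) and Kif3c (-0.44 ± 0.14). Kif5b is the widely used heavy chain of conventional kinesin, and its levels were 9.05, 8.47 and 9.0 in liver and 8.97 to 10.64 elsewhere. Kif3c, a kinesin-2 motor, read 8.77, 8.71 and 8.71 in liver and 8.89 to 9.54 elsewhere. Of the other kinesins, Kif21a was higher and Kif21b (-1.15 ± 0.21), Kif2a, Kif26b (-0.58 ± 0.13) and Kif26a (-0.52 ± 0.14) were lower. The mitotic count of liver fell to 0 without any 1 of the 3 liver arrays and to 1 without the p53−/− thymus, p66−/− thymus, WT heart, WT lung or p53−/− lung array, and the transport count fell to 5 without the p53−/− liver array.

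Neither knock-out changed a kinesin in all tissues alike past the threshold. Over the 4 tissues, limma called 0 of the 40 kinesins for p53−/− against WT and 0 for p66−/− against WT, with 0.0055% and 0.0% of all genes called. At an unadjusted p under 0.05 there were 10 and 6 kinesins. Of all 18193 genes, 758 were higher and 1115 lower in p53−/− at that threshold, and 332 and 385 in p66−/−. Kif1c had the smallest unadjusted p in both comparisons, with differences of -0.69 ± 0.17 in p53−/− (limma adjusted p = 0.28) and -0.55 ± 0.17 in p66−/− (limma adjusted p = 1.0). It was below WT in all 4 tissues in each knock-out. The 2 comparisons share the 4 WT arrays. Kif21a was likewise below WT in all 4 tissues of each, by -0.95 ± 0.25 and -0.68 ± 0.25 on average (limma adjusted p = 0.29 and 1.0). Kif11, Kif18b and Kif21b were above WT in all 4 tissues of each, Kif21b in p53−/− by only 0.0 after rounding in heart and 0.03 in liver. In p53−/− 6 of 13 mitotic kinesins were above WT in all 4 tissues and 0 below, where 8.76% of all genes were above. In p66−/− 4 were above and 0 below, where 5.13% of all genes were above. Of the 15 transport kinesins, Kif13a, Kif13b and Kif1c were below WT in all 4 tissues of each knock-out. Of all genes 7.43% were below in p53−/− and 4.96% in p66−/−. Transport kinesins above WT in all 4 tissues were 0 in p53−/− and 1 in p66−/−. All these signs are of the probe sets used, and some dimmer sets differed. In p53−/− and p66−/−, Kif1c 1424747_at was above WT in heart (0.4 and 0.25) and lung (0.63 and 0.25). Kif13a 1451890_at was above WT in lung (0.64 and 0.42). Kif13b 1433158_at (0.13 and 0.63) and Kif21a 1450738_at (0.3 and 0.15) were above WT in heart. Kif11 1452315_at was below WT in lung (-0.2 and -0.18). Leaving out arrays of thymus added 1 call, Kif5b in p53−/−. Its difference was -0.86 ± 0.20 without the WT thymus array (limma adjusted p = 0.036, 4.64% of all genes called) and -0.94 ± 0.20 without thymus (limma adjusted p = 0.037, 2.11% of all genes called).

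Within thymus the knock-outs and WT differed most in the mitotic class. In p53−/− thymus 9 of 13 mitotic kinesins were at least 2-fold above WT and 1 was at least 2-fold below, while 8.89% of all genes were above and 4.81% below. The 9 were Kif20a (2.90), Kif11 (2.49), Kif20b (2.35), Kif22 (1.68), Kif23 (1.14), Kif18a (1.13), Kif4 (1.10), Kifc1 (1.04) and Kif18b (1.01), and the 1 below was Kif15 (-1.21), all as log2 differences. In p66−/− thymus 5 of 13 were above and 0 below, against 12.7% and 4.78% of all genes. These were Kif20b (2.89), Kif20a (2.63), Kif11 (2.23), Kif22 (1.76) and Kif18a (1.72). Kif23 (1.0 after rounding), Kifc1 (0.96) and Kif4 (0.74) lay below the threshold. These counts moved with the processing. Cyclic loess, repeated quantile normalization and the mean of all probe sets each gave 7 above in p53−/−, and 6, 6 and 4 in p66−/−. By loess Kif18b (0.65) and Kif23 (0.85) fell below 2-fold in p53−/−. The shares of all genes were not counted under these settings. Both differences share the single WT thymus array.

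The transport class had medians below 0. Its median difference from WT in thymus was -0.32 in p53−/− and -0.31 in p66−/−, where the mitotic class had 1.10 and 0.96 and all genes -0.01 and -0.03. Only Kif1c in p53−/− (-1.29) passed 2-fold, and 0 did in p66−/−. Scaling the thymus arrays again by cyclic loess gave mitotic medians of 1.07 and 0.76 and transport medians of -0.40 and -0.34. Under that scaling the thymus differences of Kif5b and Kif3c turned from above to below WT in both knock-outs (Kif5b from 0.32 and 0.58 to -0.29 and -0.20, Kif3c from 0.39 and 0.47 to -0.13 and -0.20). Of the other kinesins, Kif21b was 1.47 and 1.13 above WT, Kif2a 1.0 and 1.13 above, of which the first lay just under 2-fold, and Kif21a differed by -1.80 in p53−/− and -0.85 in p66−/−. By loess the Kif21b differences were 0.89 and 0.38.

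Several marker lists moved on the same arrays. Against WT thymus, 16 of 17 salivary gland markers were at least 2-fold lower in each knock-out (medians -8.59 and -8.74), and 9 of 15 thymocyte markers were at least 2-fold higher in each (medians 1.41 and 1.25). In p53−/− thymus 13 of 15 skeletal muscle markers were higher and 9 of 14 cardiomyocyte markers lower. Their part in the kinesin differences was not tested. The knock-out thymus arrays can be compared without the WT array. By the probe sets used, the 13 mitotic kinesins differed by less than 2-fold, from -0.59 (Kif18a) to 0.83 (Kif2c) in p53−/− minus p66−/−. Another set of Kif22, 1451128_s_at, read 7.80 in p53−/− and 8.97 in p66−/− thymus, more than 2-fold apart. The share of all genes was not counted for this comparison.

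**Figure D4:**
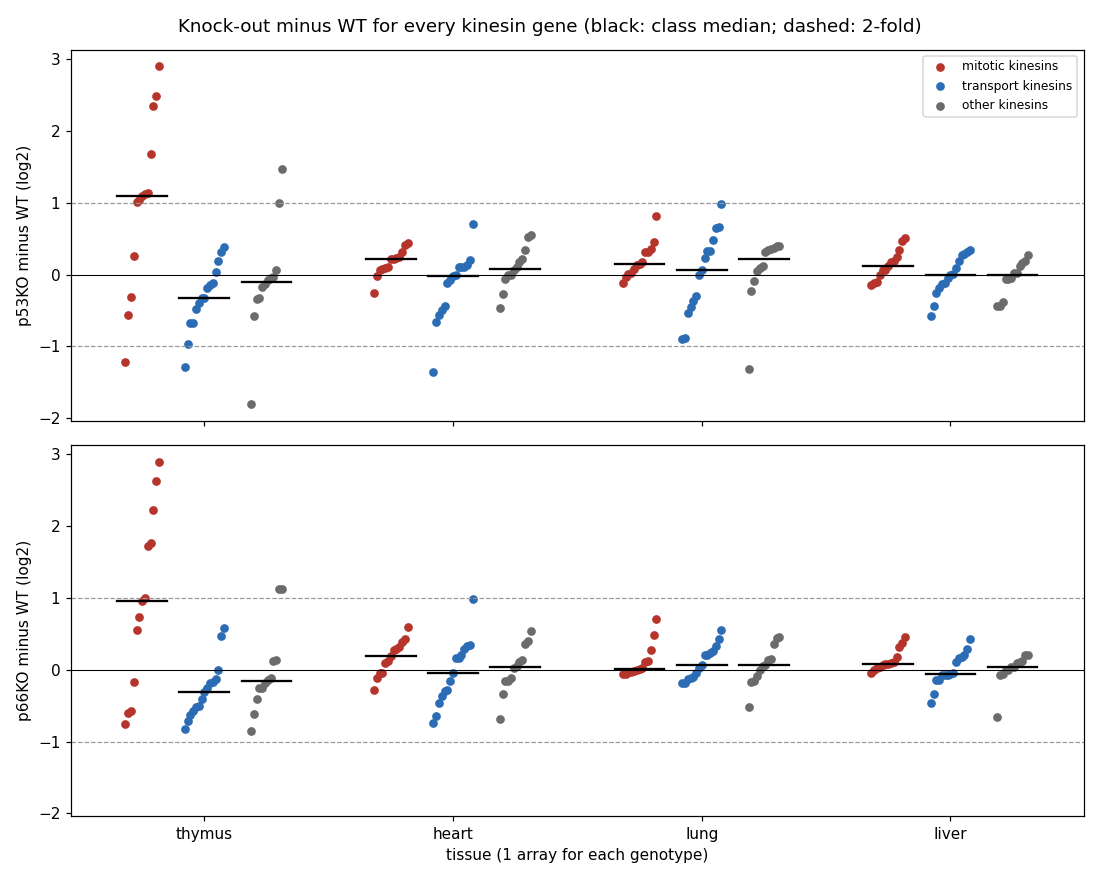
Knock-out minus WT on the log2 scale for every kinesin gene in the 4 tissues, for p53KO (top) and p66KO (bottom), with points coloured by class, class medians as black bars and 2-fold as dashed lines. The mitotic medians in thymus are 1.10 and 0.96, and outside thymus every class median lies between -0.06 and 0.22.

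Outside thymus few kinesins differed from WT by 2-fold. By the probe sets used, these were Kif5b in heart and Kif21a in lung in p53−/−, and in p66−/− there were 0 in the 3 tissues. Over all genes 2.19% differed in p53−/− heart, 4.76% in p53−/− lung, 0.511% in p53−/− liver, 1.85% in p66−/− heart, 0.654% in p66−/− lung and 0.385% in p66−/− liver. Kif5b read 10.31 in WT, 8.97 in p53−/− and 9.68 in p66−/− heart. It was also lower in p53−/− lung (10.21 in WT, 9.33 in p53−/−, 10.64 in p66−/−), which did not reach 2-fold. Some dimmer sets of other kinesins passed 2-fold. Set 1447853_x_at of Kif13a differed by -2.41 in heart and -2.48 in lung in p53−/−, and by -1.82 and -1.04 in p66−/−. Set 1439532_s_at of Kif13a differed by -1.1 and -1.18 in heart. For Kif1b in p53−/−, 1451642_at differed by -1.24 in heart and -1.03 in lung. In p53−/− lung, 1425270_at differed by -1.27 and 1455182_at by -1.15. The remaining sets of Kif13a and Kif1b stayed under 2-fold outside thymus. Within lung, hepatocyte markers and the Gapdh 3′ minus 5′ signal were highest in WT, next in p66−/− and lowest in p53−/−, as given above. Their part in the Kif5b and Kif21a values was not tested.

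Whether the knock-out difference in thymus departed from that in the other tissues was tested by limma with a separate thymus term. For p53−/− 6 mitotic kinesins were higher and 1 lower, where all genes gave 13.8% and 6.35%. For p66−/− 7 were higher and 0 lower, where all genes gave 16.6% and 7.85%. Kif20a led for p53−/− (2.97 ± 0.27, limma adjusted p = 4.9e-05) and Kif20b for p66−/− (2.81 ± 0.28, limma adjusted p = 9.9e-05). Kif15 was the lower one (-1.41 ± 0.32, limma adjusted p = 0.010). Of the transport class, Kif5b was called for p53−/− (1.26 ± 0.39, limma adjusted p = 0.042) and 0 for p66−/−. The call of Kif5b rests on its lower signal in p53−/− heart, lung and liver as well as on thymus. This test takes the spread of the single thymus array of each genotype to equal that of the other arrays, and both comparisons use the same WT thymus array.

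The partners of the motors were read from lists of known binding or pathway partners. Of 20 spindle genes, which include the kinetochore kinesin Cenpe and the passenger complex, 16 were higher in thymus and 0 lower, with a median of 1.94, where all genes gave 16.4% and 17.5%. In the separate thymus term 16 were higher and 1 lower for each knock-out, with medians of 1.69 and 1.78, against 13.8% and 6.35% of all genes for p53−/− and 16.6% and 7.85% for p66−/−. Birc5, a subunit of the passenger complex that Kif20a moves, read 7.51, 10.87 and 10.76 in WT, p53−/− and p66−/− thymus and 4.81 to 5.70 elsewhere. Nusap1, which bundles spindle microtubules, read 7.41, 10.45 and 10.95 in the same order. Of 16 transport partners measured, 2 were higher and 4 lower in thymus, against the same 16.4% and 17.5% of all genes. In p53−/− thymus 1 was at least 2-fold above WT, where 8.89% of all genes were, and in p66−/− thymus 4 were, where 12.7% of all genes were. Their median differences from WT were 0.32 and 0.38. Of these partners, Klc3 read 8.06, 8.52 and 7.86 in thymus and 5.71 to 7.21 elsewhere (contrast 1.75 ± 0.16, limma adjusted p = 2e-05). Klc1, a light chain of conventional kinesin, read 7.49, 8.44 and 8.59 in thymus and 7.22 to 9.0 elsewhere. Rhot2, which ties mitochondria to kinesin, read 7.05, 8.10 and 8.30 in thymus and 7.27 to 9.23 elsewhere. The thymus contrasts of Klc1 (-0.03) and Rhot2 (-0.22) were not called.

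Several kinesins were read by more than 1 probe set, and these did not always tell the same story. For Kif2c, the brightest probe set, 1454221_a_at, gave the flat values above. Probe set 1437611_x_at read 4.73 in WT, 8.05 in p53−/− and 7.89 in p66−/− thymus and 4.15 to 5.0 elsewhere, and 1449060_at read 6.30, 7.70 and 8.03. These differences from WT were 3.32 and 3.16 for the first and 1.40 and 1.73 for the second. So Kif2c counted as unmoved by its brightest probe set and as at least 2-fold higher by 2 of the others. Counting every probe set on its own, 16 of 26 mitotic sets were at least 2-fold above WT in p53−/− thymus and 13 of 26 in p66−/−, against 1 and 0 of 54 transport sets. By this count 10 of the 13 mitotic kinesins had such a set in p53−/− and 7 in p66−/−. The share over all probe sets was not counted. Sets of a gene were read on the same arrays and are not separate evidence. A gene with several sets has more ways to pass, so these counts cannot be set against the shares of all genes.

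Kif1b, whose gene yields motors that differ in their cargo-binding end, split by probe set between tissues. Sets 1423994_at (10.44 to 10.78), 1451200_at (9.52 to 10.51) and 1423995_at (8.35 to 8.48) had their highest mean in liver. Set 1455182_at read 10.16 to 10.55 in heart and 7.46 to 8.22 in liver, and 1425270_at read 8.89 to 9.64 in heart and 6.93 to 7.72 in liver. Of the dimmest sets, 1451762_a_at was highest in liver and 1451642_at in heart. Single sets were not tested, and the liver call of Kif1b was kept with a contrast of 0.27 when all sets were averaged. Which end of the transcript each set reads was not analysed here. For Kif16b the set used may bind related transcripts. Its other sets, both without that mark and much dimmer, disagreed. Set 1458694_at averaged 5.22, 5.57, 5.21 and 5.35 in thymus, heart, lung and liver, which gave a lung contrast of -0.17 and a liver contrast of 0.02, both opposite in sign to the set used. Set 1429062_at averaged 4.88, 6.16, 5.49 and 4.65 in the same order, with lung above and liver below the mean of the other tissues, as in the set used.

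Kif5b had 6 probe sets. Of these, 1418431_at showed the largest p53−/− difference in heart, with 8.89 in WT, 6.11 in p53−/− and 7.43 in p66−/−. In lung it read 8.68, 6.40 and 8.74, and in liver 7.58, 6.36 and 7.14. Set 1418427_at gave 10.20, 8.95 and 9.06 in heart, and 1418428_at 9.75, 8.41 and 8.51. All of these were lower in p53−/− heart than in WT heart, while 1453524_at differed by -0.11 there. By 1418427_at and 1418428_at, p66−/− heart was also more than 2-fold below WT, which the set used (9.68 against 10.31) did not show.

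Where dimmer probe sets were flat, averaging all sets of a gene drew its differences toward 0. The thymus contrast of Kif1c became -0.88, that of Kif13a -1.09, that of Kif20b 0.67 and that of Kif21b 1.36, all still past the threshold, and that of Kif24 became 0.14 and was lost. Outside thymus 8 calls were lost. They were Kif13b (-0.03), Kif21a (-0.30) and Kif21b (-0.21) in heart, Kif16b (0.31), Kif21a (0.18) and Kif23 (-0.35) in lung, and Kif13b (0.07) and Kif1c (0.15) in liver. In the separate thymus term for p53−/−, Kif18a (0.40), Kif20b (0.56), Kif23 (0.59), Kif21b (0.68) and Kif2a (0.40) no longer passed, and for p66−/− Kif23 (0.64), Kif21b (0.21) and Kif2a (0.08). Kif5b (0.55) lost its call for p53−/− when quantile normalization was repeated.

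**Figure D5:**
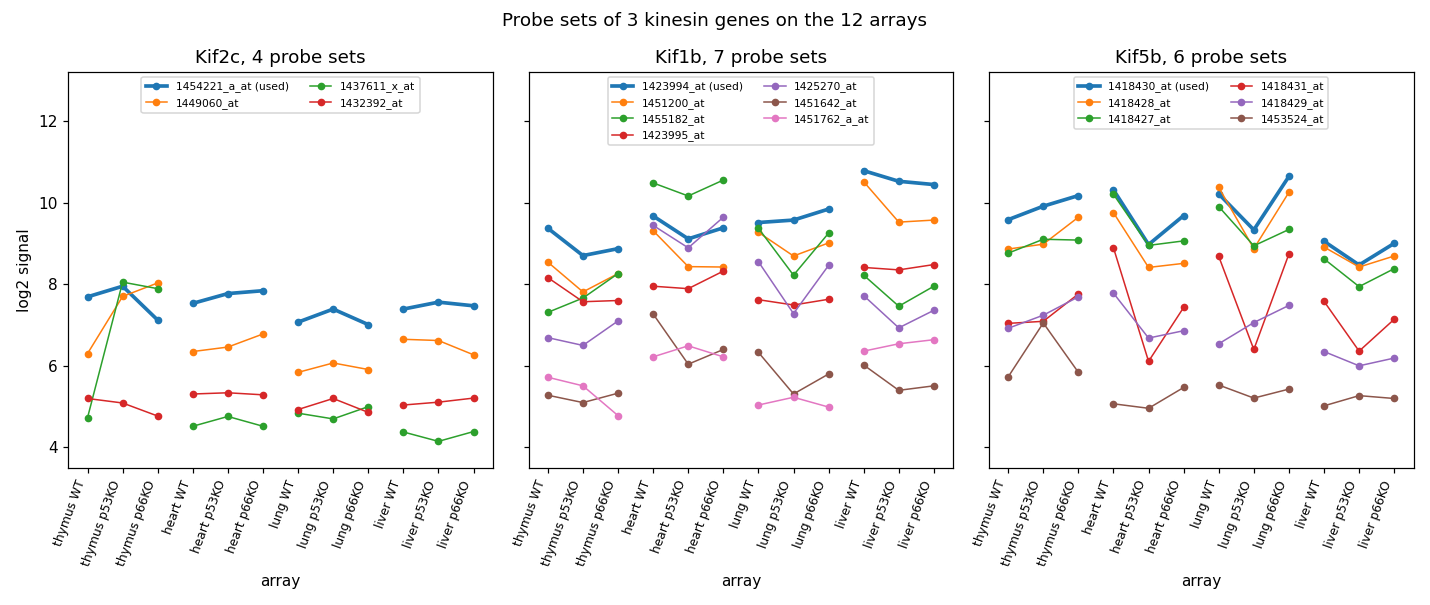
Log2 signal of each probe set of Kif2c, Kif1b and Kif5b on the 12 arrays, with the set used for the gene as the thick line and arrays of a tissue joined. For Kif2c, 1437611_x_at climbs from 4.73 to 8.05 and 7.89 in the knock-out thymus arrays while the thick line stays between 7.01 and 7.95.

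The remaining kinesins were called in no tissue contrast. Of the transport class, Kif1a (5.92 to 6.90), Kif5a (5.95 to 6.61), Kif5c (4.97 to 6.25), Kif17 (7.61 to 8.59), Kif3b (6.94 to 7.70) and Kifc2 (7.40 to 8.45) passed in no tissue contrast. Kif1a, Kif5a and Kif5c, known from neurons, were below the median signal of the array on all 12 arrays. Of the other kinesins, Kif12, Kif27, Kif28, Kif9 and Kif7 passed in none, with ranges over the 12 arrays of 0.59, 0.42, 0.55, 0.54 and 0.82. Kif7, a part of Hedgehog signalling, ran from 6.70 to 7.52. Kif9 and Kif27, linked to cilia, ran from 5.59 to 6.13 and from 4.71 to 5.13. In lung, where ciliated cell markers were higher, they averaged 5.95 ± 0.18 and 4.94 ± 0.05 (SD, n = 3). This SD spans 1 array of each genotype and is not a replicate spread.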

How the data were processed

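Total RNA of thymus, heart, lung and liver was measured on 12 Affymetrix Mouse Genome arrays, 1 for each tissue and genotype, each from a pool of 4 mice. The deposited table holds log2 signals, 1 for each probe set. Per the labels, the authors made these with RMA in Partek 6.5 from cRNA of Trizol-extracted RNA. RMA corrects background, gives all arrays the same distribution of signal and sums probes by median polish, so a change shared by all genes cannot be seen. The number of arrays limits the precision. Samples were grouped by the labels alone, and pools of a genotype may share mice across tissues, which the fits do not model.

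Of 45101 probe sets, 64 controls, 932 with several symbols and 9160 with none were left out. The other 34945 gave 18193 genes, each by its probe set of highest mean over the 12 arrays. The kinesins had 103 probe sets, and all 40 matched RefSeq by gene number and symbol. For 4 of them (Kif5a, Kif16b, Kif22 and Kifc1) the name of the probe set ends in _x_at or _s_at, a mark of probes that can bind relatives.

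Values were used as deposited, in Python 3.11.15 with pandas 2.3.3, numpy 2.4.6 and matplotlib 3.10.9 and in R 4.3.3 with limma 3.58.1. Tissue and genotype contrasts came from 1 additive fit (6 residual degrees of freedom), and the thymus contrasts of the knock-outs from a fit with thymus by genotype terms (4 residual degrees of freedom). A Benjamini-Hochberg adjusted p under 0.05 over all genes was the threshold. The fit was tested on simulated data. Within a tissue, differences of 1 or more were counted without a test. The members, classes, partner and marker lists were chosen with earlier results of these data known. Every kinesin was accounted for, those called or 2-fold different with their values, and at most 4 genes of another list were named. Alternatives were 1.5-fold and 3-fold thresholds, cyclic loess inside each tissue, centring on medians, repeated quantile normalization, averaging the probe sets of a gene, no _x_at or _s_at sets, brighter genes alone, an intensity trend, no genotype term, thymus left out and each array left out. Added after seeing the data were leaving out the WT thymus and p53−/− lung arrays together, and counting every mitotic probe set. Promoter sequences are from RefSeq (GRCm38.p6). No protein sequence was used here.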

Additional observations from a re-analysis of the deposited data

Results flagged for a closer look

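Several kinesins differed from WT in thymus by another amount than in heart, lung and liver, by the limma fit with a separate thymus term. For p53−/− the mitotic genes concerned were Kif20a (2.97), Kif11 (2.18), Kif20b (2.16), Kif22 (1.66), Kif23 (1.01), Kif18a (0.93) and, in the other direction, Kif15 (-1.41). Beside them stood Kif21b (1.35), Kif2a (1.35) and the transport motor Kif5b (1.26). For p66−/− they were Kif20b (2.81), Kif20a (2.56), Kif11 (1.69), Kif18a (1.55), Kif22 (1.44), Kif23 (1.02) and Kifc1 (0.99), with Kif2a (1.05) and Kif21b (0.87). All values are log2 differences, and each comparison rests on the same WT thymus array, on which salivary gland markers averaged 13.36. Their part in these values was not tested. Whether a gene called in 1 knock-out alone, such as Kif15, Kif5b or Kifc1, differed between the knock-outs in this term was not tested.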

How the results depend on the processing

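With 1 array per tissue and genotype, the tissue tests borrow arrays of other genotypes and the within-tissue counts have no test. The labels give no replicate numbers to pair arrays by, and knock-out and WT arrays were matched by tissue through the tissue term of the fit. Of 298 alternatives to the 20 counts of kinesins, 248 stayed within 1.5 times the count and 50 did not. Leaving out 1 array at a time gave 9 to 10 mitotic calls in thymus, 0 to 8 in heart, 0 to 9 in lung and 0 to 9 in liver, and 4 to 8 transport calls in thymus, 5 to 9 in heart, 1 to 7 in lung and 5 to 9 in liver. It gave 0 to 1 transport calls for p53−/− over the tissues, and 1 with thymus left out. The highest mitotic counts in heart, lung and liver all came without the WT thymus array. Without that array and the p53−/− lung array, transport calls in thymus were 9. Brighter genes alone, which drop 8 of the 13 mitotic kinesins, gave 3 mitotic calls in thymus and 1 in liver, 3 and 2 in the separate thymus term for p53−/− and p66−/−, and 4 and 1 mitotic genes 2-fold different in the knock-out thymus, with 1 kinesin 2-fold different in p53−/− outside it. An intensity trend gave 1 mitotic call in heart and 1 in liver, no genotype term 1 in lung and 1 in liver, and repeated quantile normalization 1 in liver. At 3-fold, 4 mitotic and 0 transport kinesins differed in p53−/− thymus and 0 kinesins in p53−/− outside it. In p66−/− thymus 5 mitotic and 0 transport kinesins did, all 5 higher. At 1.5-fold, transport counts in thymus were 4 and 3 for p53−/− and p66−/−, all of them lower. The mitotic count for p66−/− thymus was 10, with 8 higher and 2 lower. Outside thymus the counts were 10 for p53−/− (5 higher, 5 lower) and 7 for p66−/− (3 higher, 4 lower). The shares of all genes were not counted at 1.5-fold or 3-fold. Cyclic loess gave 2 and 2 transport kinesins in p53−/− and p66−/− thymus, repeated quantile normalization 3 and 2. The mean of all probe sets gave 0 in p53−/− thymus and 1 kinesin outside it in p53−/−. Every probe set on its own gave 17 and 13 mitotic sets in p53−/− and p66−/− thymus. Of 71 single calls of a kinesin in a contrast, 37 were kept under all alternatives in which they had a value. Over all of them 1077 values kept the call, 126 kept the direction but not the call, and 2 reversed, the lung (-0.17) and liver (0.02) contrasts of Kif16b without _x_at and _s_at sets. The separate thymus term has no value without a thymus array that it needs. Signals near the bottom of the scale, as for Kif14, Kif2b and Kif28, limit what differences could be seen.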
